A study of Homo sapiens with 12 samples.

Results

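Genes of the amino acid stress response controlled by the transcription factor ATF4, together with aminoacyl-tRNA synthetases, were followed in HepG2 liver cancer cells kept in 4 media. The list holds 38 genes, found by symbol in a table of 10940 genes. It covers 6 transcription factors, 8 stress effectors, 11 enzymes of amino acid and one-carbon metabolism, 5 amino acid transporters, and 8 genes for aminoacyl-tRNA synthetases and tRNA export. Of the 38, 37 were in the table and all 37 passed the filter on low counts. CHAC1, whose product degrades glutathione, was not analysed here.

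ATF4 is a leucine zipper transcription factor whose amount is set mainly at the level of translation. Kinases that sense amino acid shortage (GCN2), misfolded protein in the endoplasmic reticulum (PERK), viral RNA (PKR) or heme deficiency (HRI) phosphorylate the initiation factor eIF2, general translation falls, and the ATF4 message is translated more. ATF4 protein then binds with C/EBP partners to composite elements near genes that import, make and charge amino acids, and near regulators such as DDIT3 and TRIB3 that limit or end the response. The RNA of ATF4 itself is therefore a poor gauge of its protein, which was not measured here. The liver uses the same genes to adjust to the supply of amino acids.

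HepG2 is an established, genetically unmodified (wild type) human line from a liver cancer. Cells were seeded in EMEM (Eagle's minimum essential medium), switched after 24 h to Plasmax-TE+Fe, Plasmax-TE, Plasmax or again EMEM, given fresh medium at 48 h and harvested 96 h after the switch, with 10% heat-inactivated fetal bovine serum in all 4 media. Plasmax is a medium with the nutrients of human plasma, Plasmax-TE lacks its trace elements, and Plasmax-TE+Fe lacks them but has iron added. Trace elements that the serum may bring to all 4 media are not given here. The question was how trace elements, and iron among them, bear on the cells. Each medium had 3 libraries of 3′ messenger RNA ends, 12 in all, with total counts between 1562125 and 2384090. EMEM and Plasmax also differ in nutrients other than trace elements, so a difference between them cannot be assigned to any component.

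ATF4 and its C/EBP partners bind a composite element, written here as TGATGNAA (reverse complement TTNCATCA), and both forms were searched on the promoters that RefSeq gives (GRCh38.p14, 250 bases before to 50 after each start). Of the 38 genes, 32 had a promoter in that table, and 10 of these (31.2%) held a match, against 1217 of 27305 genes in all (4.46%). Counted by promoter, 10 of 47 (21.3%) had a match, against 1270 of 35116 (3.62%). The list was drawn up from known ATF4 targets and synthetases, so its share of matches follows in part from that choice and is no result of these data. A match is a run of letters and not a bound site. PYCR1, SLC7A11, ALDH1L2, NUPR1, SHMT2 and PSPH had no entry. Sequences follow for the matched genes that differed among the 4 media (ATF3 and NARS1) and for ASNS, whose element is the textbook amino acid response element. Those of 3 further synthetases are shown beside NARS1, a choice made after their values were seen. Each is read 5′ to 3′ along the gene's strand with the match in capitals.
ASNS, chr7:97872409-97872658, minus strand, the 250 bases before the start, match 68 bases upstream: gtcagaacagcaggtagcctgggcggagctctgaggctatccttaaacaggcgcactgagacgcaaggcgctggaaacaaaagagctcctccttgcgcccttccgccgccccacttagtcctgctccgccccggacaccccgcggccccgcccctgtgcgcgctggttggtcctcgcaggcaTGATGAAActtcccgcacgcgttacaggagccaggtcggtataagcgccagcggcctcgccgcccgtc
ATF3, chr1:212565205-212565234, plus strand, match 191 bases upstream: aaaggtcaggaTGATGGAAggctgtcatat
NARS1, chr18:57621804-57621833, minus strand, match 15 bases downstream: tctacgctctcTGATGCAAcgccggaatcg
MARS1, chr12:57488053-57488082, plus strand, match 4 bases upstream: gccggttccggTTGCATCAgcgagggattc
GARS1, chr7:30594834-30594863, plus strand, match 33 bases upstream: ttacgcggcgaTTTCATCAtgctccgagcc
AARS1, chr16:70289675-70289704, minus strand, match 187 bases upstream: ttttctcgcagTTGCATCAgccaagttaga
The other matches lay in the promoters of CEBPG, CHAC1, SLC3A2 and SLC7A1.

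Some libraries stood apart for these genes and bear on every result below. EMEM replicate 2 was the lowest of the 3 EMEM libraries in 35 of the 37 genes, whereas it was the lowest in 34.0% of all genes tested. Its level was a median of 0.616 log2 units below the other EMEM libraries over the 37 genes (-0.616), and 0.00157 log2 units above them over all genes. Plasmax-TE replicate 1 was the lowest of its medium in 26 of the 37 (40.4% of all genes), and Plasmax-TE+Fe replicate 2 in 29 (39.2%). In both of these libraries at once, 25 of the 37 genes (67.6%) were lowest and 6 (16.2%) were highest, against 25.2% and 24.1% of all genes. The 25 included 10 of the 11 enzymes and 5 of 5 transporters. The 6 were ATF5, CEBPB, CEBPG, DDIT3, AARS1 and SARS1. The labels number the libraries from 85 to 96, and the first run of 4 numbers holds EMEM replicate 1, Plasmax replicate 1 and both of these libraries. The sources used here do not say what the numbers stand for. Results are therefore given with and without EMEM replicate 2 where EMEM was compared, with and without the pair (Plasmax-TE+Fe replicate 2 and Plasmax-TE replicate 1), and with the run of numbers as a block for the 6 comparisons of media. EMEM replicate 2 and the pair were singled out by the values of these same genes. Changes in fold changes and calls without them therefore follow in part from that choice.

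**Figure D1:**
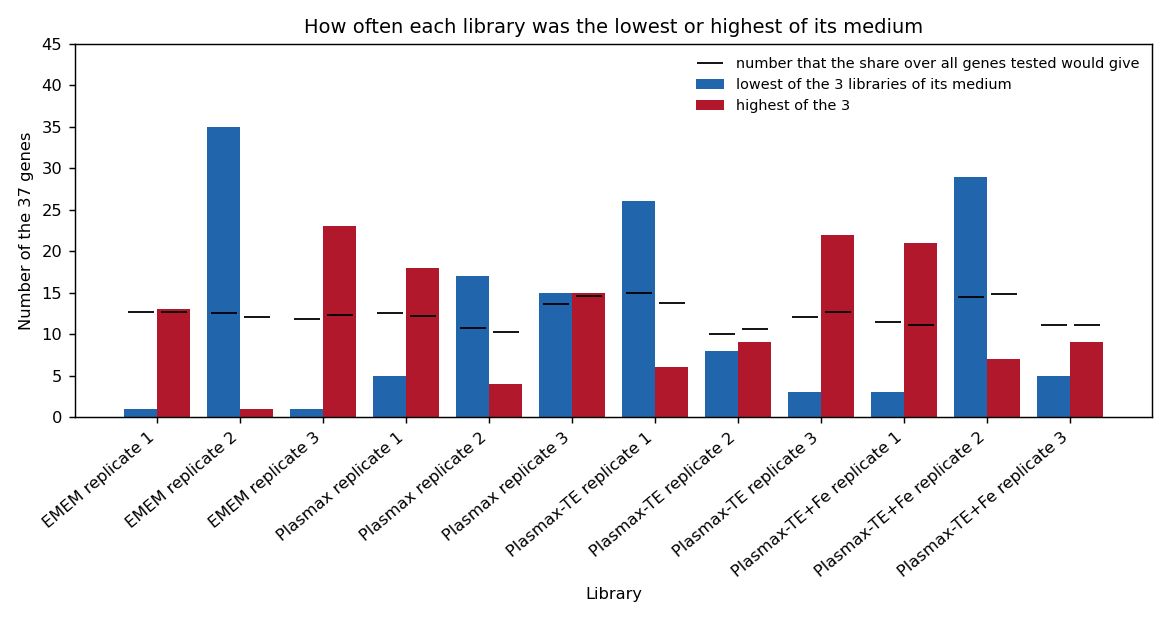
Number of the 37 genes (vertical axis) for which each library was the lowest (blue bars) or highest (red bars) of the 3 libraries of its medium, with black marks at the number that the share over all genes tested would give. EMEM replicate 2 was lowest for 35 genes, Plasmax-TE+Fe replicate 2 for 29 and Plasmax-TE replicate 1 for 26.

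Levels are CPM, the count of a gene relative to all counts of its library, after TMM scaling, which evens out library composition, in the order replicate 1, 2 and 3. Genes were tested with edgeR's quasi-likelihood test on all 10459 genes kept, and a gene was called at a Benjamini-Hochberg adjusted p under 0.05. Whether the 3 libraries of a medium are 3 cultures is not stated, and p-values therefore reflect only how far these libraries scatter, possibly for technical reasons. In bulk RNA, less RNA per cell and fewer cells that express a gene cannot be told apart. Of the liver markers ALB, AFP, APOA1, APOB, APOH, TF, TTR, HNF4A, FGB and SERPINA1, 10 of 10 were in the table, and they moved with the media. Summed, they stood between 35900 and 40400 CPM in EMEM, 10900 and 12600 in Plasmax, 22900 and 24600 in Plasmax-TE, and 16800 and 18100 in Plasmax-TE+Fe. In Plasmax against EMEM 7 of the 10 were called lower and 1 higher (median log2 fold change -1.14), against 11.5% and 9.90% of all genes. In Plasmax-TE against Plasmax 6 were called higher and 1 lower (median 0.70), against 5.61% and 5.63% of all genes. Endothelial markers were in the table in 0 of 3 cases. The fibroblast markers COL1A1 and PDGFRB (2 of 4, COL1A2 and DCN not in the table) summed to between 18 and 27.4 CPM in EMEM and between 2.17 and 10.5 CPM in the other media. PDGFRB was called lower in Plasmax than in EMEM (-3.02 ± 0.45, log2 ± SE). Of 3 leukocyte markers PTPRC was not in the table, CD68 lay between 0.996 and 6.17 CPM, and LYZ, also a secreted protein, made up nearly all of their sum. That sum lay between 2170 and 2540 CPM in EMEM, 1270 and 1650 in Plasmax, 744 and 1670 in Plasmax-TE, and 956 and 1760 in Plasmax-TE+Fe. LYZ was called lower in Plasmax than in EMEM (-0.70 ± 0.24, log2 ± SE), and it was lowest in the pair of libraries within their media. The part of these markers in the results was not tested.

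Of the 37 genes, 14 differed among the 4 media, against 18.0% of all genes tested. They comprised 7 of 7 measured stress effectors, 2 of 6 transcription factors (ATF3 and DDIT3), 2 of 5 transporters (SLC38A2 and SLC7A11), 2 of 8 genes for synthetases and tRNA export (WARS1 and NARS1) and 1 of 11 enzymes (ALDH18A1). Without the pair, 22 of the 37 differed, against 24.7% of all genes. Without EMEM replicate 2, 13 of the 37 differed, against 13.1% of all genes. Without EMEM replicate 3 the count was 9, with the share of all genes not given. By mean level, 16 genes were highest in Plasmax, 10 in EMEM, 7 in Plasmax-TE+Fe and 4 in Plasmax-TE. The lowest mean was in Plasmax-TE for 16 genes, in EMEM for 13, in Plasmax for 7 and in Plasmax-TE+Fe for 1. The list thus did not follow a single order of media.

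**Figure D2:**
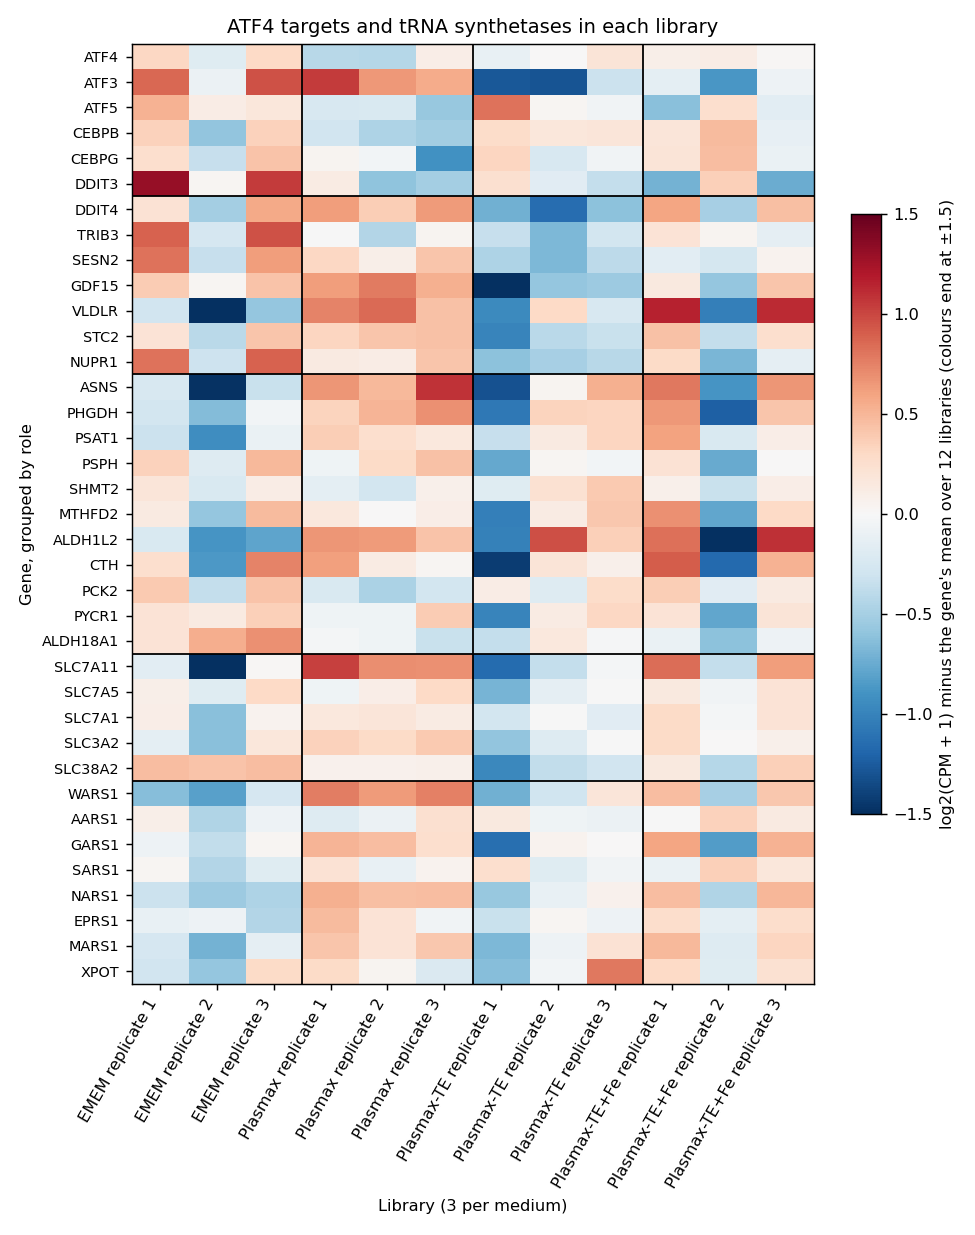
Colour shows log2(CPM + 1) of each of the 37 genes (vertical axis, grouped by role) in each of the 12 libraries (horizontal axis), minus the gene's mean over libraries. Of the 7 stress effectors, 6 have their lowest mean in Plasmax-TE and VLDLR in EMEM, while most enzymes and transporters are low in EMEM replicate 2 and the pair.

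Among the transcription factors, the RNA of ATF4 itself stood at 1753, 1236 and 1736 CPM in EMEM, 1056, 1049 and 1514 in Plasmax, 1303, 1416 and 1612 in Plasmax-TE and 1498, 1516 and 1419.7 in Plasmax-TE+Fe. The means ran from 1206 ± 266 CPM (SD, n = 3) in Plasmax to 1575 ± 293 CPM in EMEM, and libraries of all 4 media overlapped. ATF4 was not called in the test of the 4 media (adjusted p = 0.296, edgeR).

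ATF3, a stress-induced leucine zipper factor, stood at 29.5, 14.9 and 31.6 CPM in EMEM, 33.9, 25.5 and 23.7 in Plasmax, 5.96, 5.84 and 12.5 in Plasmax-TE and 14.2, 8.22 and 14.9 in Plasmax-TE+Fe. The 3 Plasmax-TE libraries were below all EMEM and Plasmax libraries, and those of Plasmax-TE+Fe were below all Plasmax libraries (adjusted p among media = 0.00183, edgeR). DDIT3, which encodes the cell death factor CHOP, stood at 79.6, 32.4 and 66.6 CPM in EMEM, 34.5, 20.5 and 21.9 in Plasmax, 37.4, 27.9 and 24.5 in Plasmax-TE and 18.9, 40.6 and 18.4 in Plasmax-TE+Fe. EMEM replicates 1 and 3 were above every other library, while EMEM replicate 2 lay among the Plasmax-type media (adjusted p among media = 0.0167, edgeR). In the reference annotation DDIT3 and MARS1 overlap by 65 bases at their 3′ ends on opposite strands, and the sources used here do not give the strand setting of the counting, so these genes may share reads.

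ATF5, CEBPB and CEBPG, partners and relatives of ATF4 in the leucine zipper family, had their lowest means in Plasmax. CEBPB averaged 459 ± 152 CPM in EMEM, 321 ± 28.6 in Plasmax, 497 ± 20.7 in Plasmax-TE and 492 ± 102 in Plasmax-TE+Fe. Its Plasmax libraries, at 353, 312 and 298 CPM, lay below all libraries of Plasmax-TE and Plasmax-TE+Fe, but above EMEM replicate 2. ATF5 averaged 32.9 ± 4.28 CPM in Plasmax and 50.9 ± 8.23 in EMEM, with no overlap, and its highest library was Plasmax-TE replicate 1 at 74.2 CPM. CEBPG averaged between 58.6 ± 19.0 CPM in Plasmax and 80.3 ± 15.5 in Plasmax-TE+Fe, and its media overlapped.

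All 7 measured stress effectors were called among the 4 media. GDF15, a secreted stress hormone, stood at 3162, 2471 and 3257 CPM in EMEM, 3744, 4159 and 3509 in Plasmax, 789.7, 1625 and 1660.0 in Plasmax-TE and 2698, 1619.7 and 3251 in Plasmax-TE+Fe. All 3 Plasmax libraries were above all others, and in Plasmax-TE every library was below every EMEM and Plasmax library (adjusted p among media = 0.00127, edgeR). DDIT4, an inhibitor of the growth kinase complex mTORC1, stood at 89.2, 53.2 and 114 CPM in EMEM, 119, 99.1 and 119.6 in Plasmax, 46.0, 34.2 and 49.5 in Plasmax-TE and 116, 54.0 and 105 in Plasmax-TE+Fe. Its Plasmax-TE libraries were all below those of the other media, and the low library of Plasmax-TE+Fe was replicate 2, 1 of the pair (adjusted p among media = 0.006, edgeR).

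SESN2, a leucine sensor that also restrains mTORC1, stood at 193, 85.6 and 169.6 CPM in EMEM, 136, 116 and 146 in Plasmax, 79.1, 67.9 and 82.6 in Plasmax-TE and 98.1, 90.5 and 113 in Plasmax-TE+Fe. Plasmax-TE again lay below all other libraries. TRIB3, a pseudokinase that feeds back on ATF4, stood at 271, 123 and 286 CPM in EMEM, 146, 108 and 151 in Plasmax, 115, 91.7 and 121 in Plasmax-TE and 169, 151 and 133 in Plasmax-TE+Fe. EMEM replicates 1 and 3 were far above the rest and EMEM replicate 2 was not. Adjusted p among media was 0.0142 for SESN2 and 0.0151 for TRIB3 (edgeR).

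NUPR1, a small nuclear stress protein, stood at 183, 83.1 and 193 CPM in EMEM, 114, 112 and 139 in Plasmax, 67.2, 73.3 and 77.8 in Plasmax-TE and 126, 64.3 and 94.6 in Plasmax-TE+Fe. As with TRIB3, EMEM replicates 1 and 3 were above all other libraries and EMEM replicate 2 was not. The Plasmax-TE libraries of NUPR1 lay below all EMEM and Plasmax libraries. STC2, a secreted glycoprotein, stood at 360.1, 236 and 419 CPM in EMEM, 391, 419 and 426 in Plasmax, 157, 237 and 248 in Plasmax-TE and 423, 244 and 372 in Plasmax-TE+Fe. EMEM replicate 2 lay at the level of Plasmax-TE, and the Plasmax libraries were above all of Plasmax-TE. VLDLR, a lipoprotein receptor, was sparse, with 7 to 57 counts per library, and stood at 8.34, 2.98 and 6.61 CPM in EMEM, 18.2, 19.5 and 14.4 in Plasmax, 4.87, 13.0 and 8.70 in Plasmax-TE and 24.5, 4.63 and 23.9 in Plasmax-TE+Fe. Its Plasmax libraries were above all EMEM libraries, and its high Plasmax-TE+Fe libraries were replicates 1 and 3. Adjusted p among media was 0.025 for NUPR1, 0.0231 for STC2 and 0.044 for VLDLR (edgeR).

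**Figure D3:**
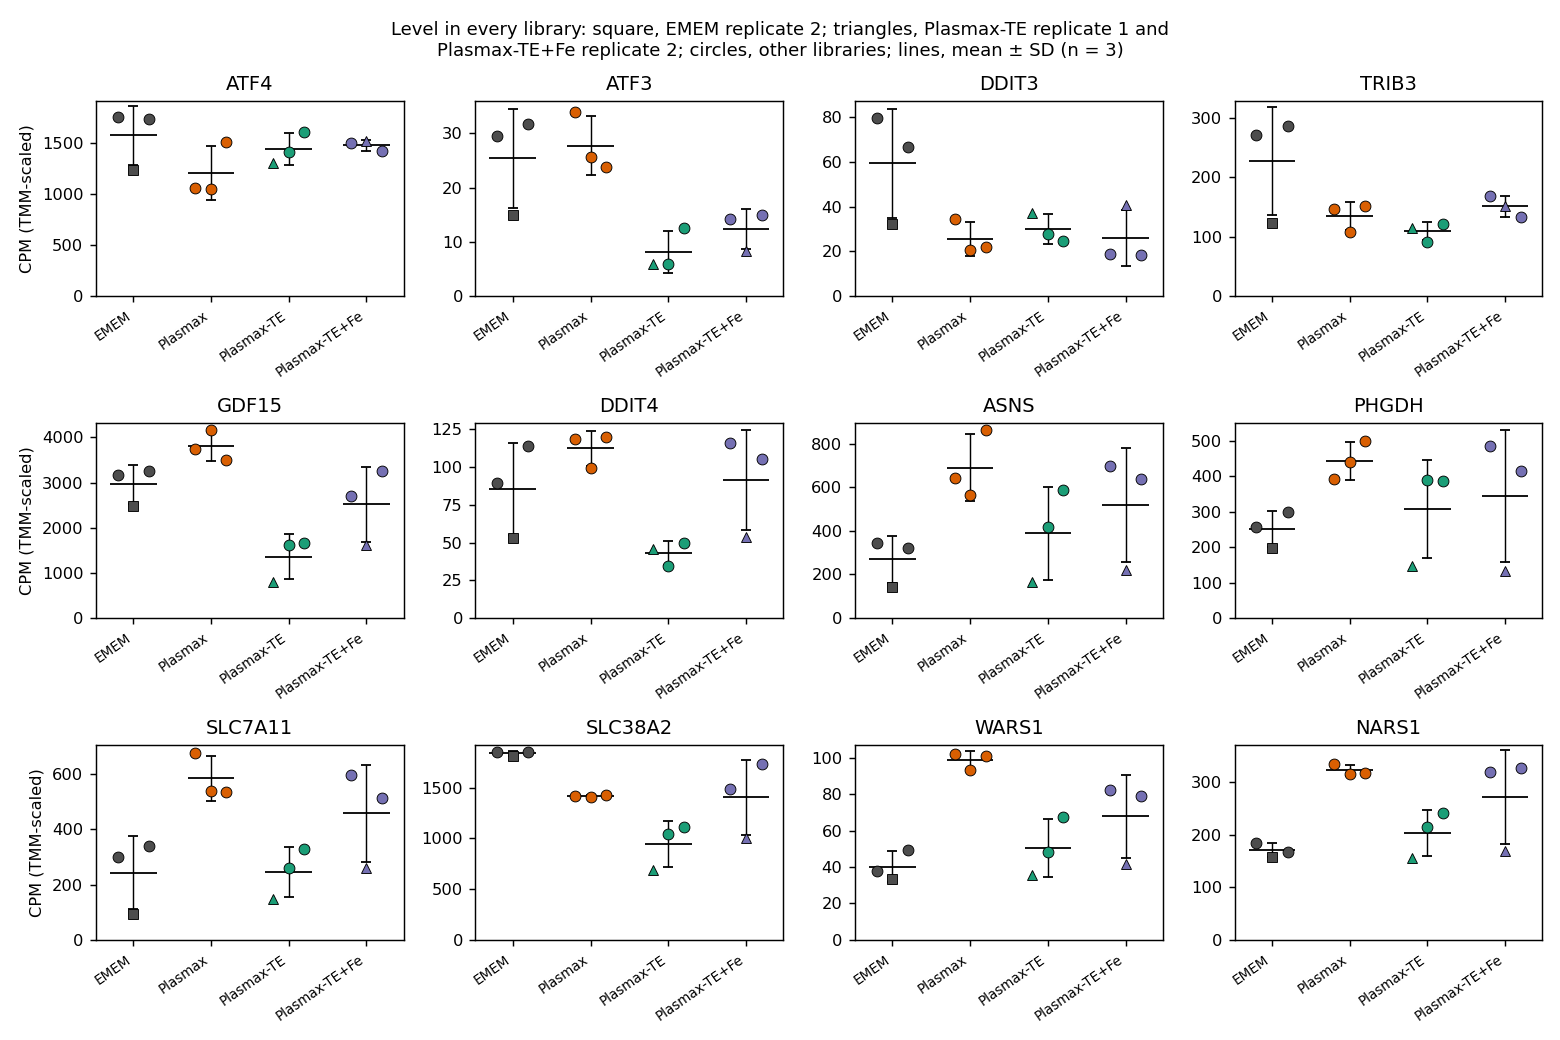
CPM of 12 of the genes (vertical axes, from 0) in each library by medium (horizontal axes), with the mean and SD of 3 libraries as lines. Squares mark EMEM replicate 2 and triangles the pair of libraries in Plasmax-TE and Plasmax-TE+Fe, which lie at the bottom of their media for ASNS, PHGDH, SLC7A11, SLC38A2, WARS1 and NARS1.

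Among the enzymes, libraries of the same medium often lay far apart. ASNS, which makes asparagine, stood at 342, 144 and 319.8 CPM in EMEM, 643, 566 and 861 in Plasmax, 163, 418 and 586 in Plasmax-TE and 699.7, 219 and 639 in Plasmax-TE+Fe. Its Plasmax libraries were above all EMEM libraries, but within Plasmax-TE and Plasmax-TE+Fe the levels differed more than 2-fold between libraries. ASNS was not called among the 4 media (adjusted p = 0.0744, edgeR) and was called without the pair (adjusted p = 0.000387). The serine pathway enzyme PHGDH averaged 251 ± 51.8 CPM in EMEM, 444 ± 54.1 in Plasmax, 308 ± 139 in Plasmax-TE and 345 ± 188 in Plasmax-TE+Fe. The pair stood at 147 and 132 CPM, below every EMEM library, whereas the other libraries of their media lay between 387 and 487 CPM. PHGDH was called among the 4 media only without the pair (adjusted p = 0.000518 against 0.305 with it, edgeR).

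ALDH18A1, which starts proline synthesis from glutamate, went the other way and was highest in EMEM. It stood at 99.5, 126 and 139 CPM in EMEM, 84.7, 82.1 and 68.0 in Plasmax, 67.2, 96.2 and 84.8 in Plasmax-TE and 80.0, 56.0 and 81.7 in Plasmax-TE+Fe, and every EMEM library was above every other library (adjusted p among media = 0.0182, edgeR). It was also 1 of 2 genes for which EMEM replicate 2 was not the lowest of its medium, the other being EPRS1. PSAT1, the next serine enzyme, averaged 502 ± 139 CPM in EMEM and 800.4 ± 60.5 in Plasmax, and PSPH, the last, 182 ± 42.9 and 181 ± 31.0. The mitochondrial folate enzymes SHMT2 and MTHFD2 averaged 298 ± 42.7 and 465 ± 159 CPM in EMEM and 271 ± 34.0 and 469.5 ± 25.3 in Plasmax, and the spread of their media overlapped. ALDH1L2, which returns one-carbon units as carbon dioxide, had at most 16 counts in a library and 0 in Plasmax-TE+Fe replicate 2. CTH, which forms cysteine, had its lowest libraries in the pair and EMEM replicate 2, at 9.75, 11.8 and 14.9 CPM. PYCR1, the last enzyme of proline synthesis, averaged from 391 ± 161 CPM in Plasmax-TE to 489 ± 38.6 in EMEM, and PCK2, the mitochondrial phosphoenolpyruvate carboxykinase, from 172 ± 15.5 in Plasmax to 248 ± 69.0 in EMEM.

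Of the transporters, SLC7A11, the cystine and glutamate exchanger, varied most. It stood at 298, 92.4 and 338 CPM in EMEM, 678, 539 and 537 in Plasmax, 149, 259 and 328 in Plasmax-TE and 598, 261 and 515 in Plasmax-TE+Fe. Plasmax lay above all EMEM and Plasmax-TE libraries, and the lowest libraries of EMEM, Plasmax-TE and Plasmax-TE+Fe were the 3 that stood apart (adjusted p among media = 0.0197, edgeR). SLC38A2, an importer of small neutral amino acids such as alanine and glutamine, stood at 1855, 1809 and 1855 CPM in EMEM, 1414, 1408 and 1424 in Plasmax, 687, 1040.3 and 1109 in Plasmax-TE and 1491, 1003 and 1728 in Plasmax-TE+Fe. The EMEM libraries, EMEM replicate 2 included, agreed closely and lay above all others, the Plasmax libraries agreed closely too, and all of Plasmax-TE lay below both (adjusted p among media = 0.00575, edgeR). SLC3A2, the heavy chain shared by SLC7A11 and SLC7A5, averaged 262 ± 70.0 CPM in EMEM, 374 ± 13.2 in Plasmax, 249 ± 49.1 in Plasmax-TE and 322 ± 34.6 in Plasmax-TE+Fe. SLC7A5, the carrier of large neutral amino acids, ranged from 291 to 580.5 CPM, and SLC7A1, the carrier of cationic amino acids, from 141 to 268 CPM. Neither was called in any of the 6 comparisons with all 12 libraries.

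Among the synthetases, which charge tRNAs with their amino acids, WARS1 (tryptophan) stood at 37.9, 33.2 and 49.6 CPM in EMEM, 102, 93.1 and 101 in Plasmax, 35.7, 48.1 and 67.4 in Plasmax-TE and 82.6, 41.6 and 79.2 in Plasmax-TE+Fe. All Plasmax libraries were above all libraries of the other media. NARS1 (asparagine) stood at 185, 158 and 168 CPM in EMEM, 334, 315 and 317 in Plasmax, 155, 214 and 241 in Plasmax-TE and 319, 169 and 327 in Plasmax-TE+Fe. Its EMEM libraries lay within a narrow band, its Plasmax libraries were all higher, and Plasmax-TE+Fe replicates 1 and 3 were at the Plasmax level while replicate 2 was at that of EMEM. Adjusted p among media was 0.00281 for WARS1 and 0.0101 for NARS1 (edgeR). MARS1 (methionine), GARS1 (glycine) and EPRS1 (glutamate and proline) averaged 336 ± 26.3, 265 ± 24.7 and 163 ± 29.7 CPM in Plasmax against 208 ± 41.0, 181 ± 25.3 and 122 ± 16.7 in EMEM, with no overlap. Of these synthetases, MARS1 alone was called in Plasmax against EMEM with all 12 libraries. For EPRS1 the nearest libraries stood at 134.5 CPM (Plasmax replicate 3) and 132.9 CPM (EMEM replicate 2). AARS1 (alanine) and SARS1 (serine) averaged 192 ± 31.5 and 212 ± 24.3 CPM in Plasmax against 176 ± 32.9 and 179 ± 28.9 in EMEM, and were highest in the pair within their media. XPOT, which exports tRNA from the nucleus, ranged from 23.3 to 64.7 CPM and its media overlapped.

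In Plasmax against EMEM, 11 of the 37 genes were called, 8 higher and 3 lower, against 21.4% of all genes (9.90% higher and 11.5% lower). The median log2 fold change was 0.14 over the 37 genes and -0.01 over all genes tested. The synthetases WARS1, NARS1 and MARS1 rose by 1.29 ± 0.24, 0.92 ± 0.21 and 0.69 ± 0.21 (log2 ± SE, here and below), which is 2.45-fold for WARS1 (adjusted p = 0.000707, 0.00297 and 0.0223, edgeR). The enzymes ASNS and PSAT1 rose by 1.36 ± 0.40 and 0.67 ± 0.22, the transporters SLC7A11 and SLC3A2 by 1.27 ± 0.35 and 0.51 ± 0.18, and VLDLR by 1.58 ± 0.49 (adjusted p from 0.014 for SLC7A11 to 0.0494 for SLC3A2, edgeR). Lower in Plasmax were DDIT3 at -1.21 ± 0.32, TRIB3 at -0.74 ± 0.23 and ALDH18A1 at -0.64 ± 0.18 (adjusted p = 0.0103, 0.0288 and 0.017, edgeR). The other transcription factors were not called, with ATF4 at -0.38 ± 0.16, ATF3 at 0.13 ± 0.29, ATF5 at -0.63 ± 0.25, CEBPB at -0.51 ± 0.20 and CEBPG at -0.40 ± 0.24. By role, 2 of 11 enzymes were called higher and 1 lower, 2 of 5 transporters higher, and 3 of 8 genes for synthetases and tRNA export higher.

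These calls changed when EMEM replicate 2 was left out. That library was singled out as the lowest of EMEM in 35 of these genes. A shift toward lower values in Plasmax, new lower calls included, therefore follows in part from that choice. Without EMEM replicate 2, 8 of the 37 were called, 2 higher and 6 lower, against 16.2% of all genes, and the median over the 37 was -0.01. Only WARS1 (1.16 ± 0.28) and NARS1 (0.87 ± 0.24) were still called higher (adjusted p = 0.0078 and 0.0189, edgeR). DDIT3 and TRIB3 were further below EMEM, at -1.52 ± 0.30 and -1.05 ± 0.18, and ATF4 (-0.53 ± 0.17), CEBPB (-0.77 ± 0.17), NUPR1 (-0.63 ± 0.21) and PCK2 (-0.74 ± 0.18) were now called lower. ASNS, SLC7A11, VLDLR, PSAT1, MARS1, SLC3A2 and ALDH18A1 kept their sign and were no longer called. ASNS stood at 1.06 ± 0.42, SLC7A11 at 0.87 ± 0.30, VLDLR at 1.22 ± 0.53, PSAT1 at 0.47 ± 0.22, MARS1 at 0.54 ± 0.23 and SLC3A2 at 0.32 ± 0.18 without that library, each closer to 0 than with it (adjusted p from 0.0542 for SLC7A11 to 0.242 for SLC3A2, edgeR). ALDH18A1 had nearly the same fold change, -0.62 ± 0.21 (adjusted p = 0.0531, edgeR).

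Other choices moved the count as well. With the pair left out, 20 were called (13 higher and 7 lower, 28.2% of all genes), and with the run of library numbers as a block 18 were called (27.8% of all genes). The block added ATF4 (-0.39 ± 0.12), ATF5 (-0.62 ± 0.18), CEBPB (-0.48 ± 0.15), PCK2 and SLC38A2 as lower and PHGDH and EPRS1 as higher. Both of these sets held all 11 genes. The count was 5 without Plasmax replicate 1 or without Plasmax replicate 2, and 7 without EMEM replicate 1. The share of all genes called can also move when a library is left out, as from 21.4% to 16.2% without EMEM replicate 2. It is not given for other single libraries left out, here and below, so those counts cannot be set against it. WARS1 and NARS1 were called with each of the 12 libraries left out in turn. DDIT3 was lost without EMEM replicate 1 or Plasmax replicate 2, and TRIB3 without EMEM replicate 1 or 3 or Plasmax replicate 1 or 2. The other calls, besides EMEM replicate 2, were lost without Plasmax replicate 3 for ASNS, Plasmax replicate 1 for SLC7A11, Plasmax replicate 1 or 3 for MARS1, EMEM replicate 3 or Plasmax replicate 1 or 2 for VLDLR, EMEM replicate 1 or Plasmax replicate 1 or 2 for PSAT1, and EMEM replicate 3 or Plasmax replicate 2 or 3 for ALDH18A1. SLC3A2 was kept in 4 of the 12 cases.

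**Figure D4:**
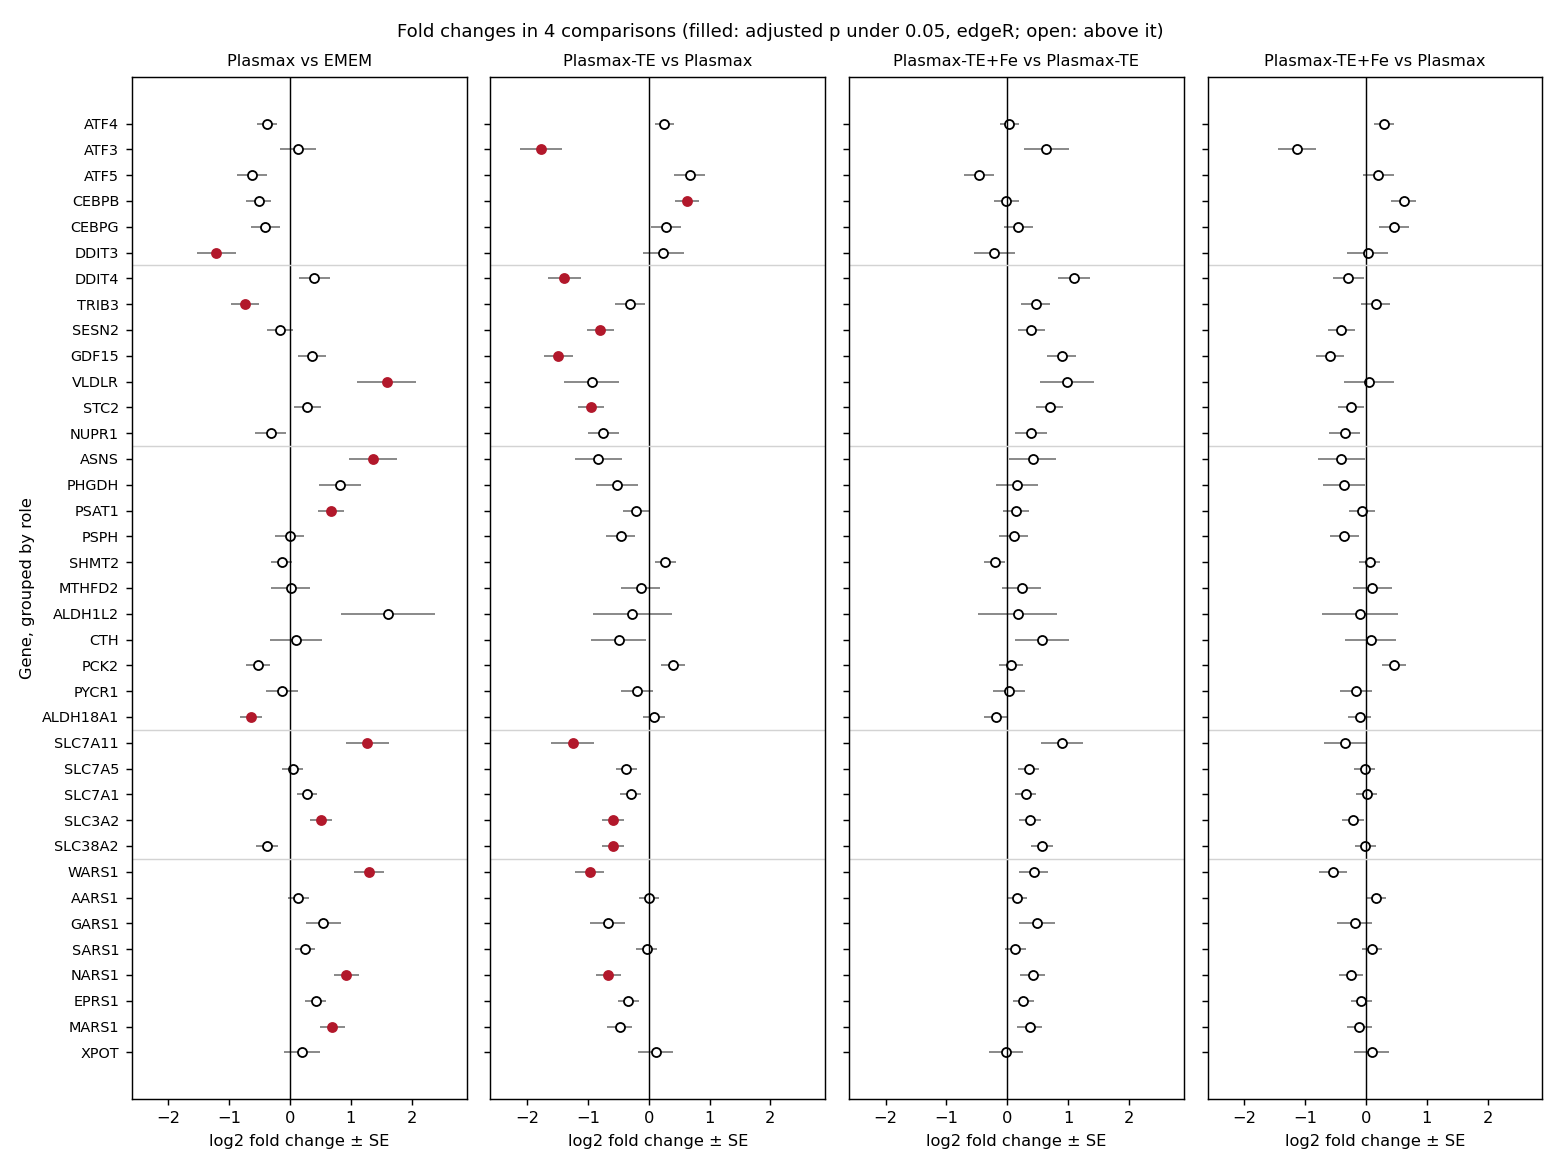
Log2 fold change ± SE (horizontal axes) of the 37 genes (vertical axis, grouped by role) in 4 comparisons, with filled points for genes at an adjusted p under 0.05. There are 11 filled points in Plasmax against EMEM, 11 in Plasmax-TE against Plasmax and 0 in the comparisons with added iron.

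ATF3, 4 stress effectors, 3 transporters and 2 synthetases were lower in Plasmax-TE than in complete Plasmax. In Plasmax-TE against Plasmax, 11 of the 37 were called, 1 higher and 10 lower, against 11.2% of all genes (5.61% higher and 5.63% lower), and the median was -0.37 against 0.02 over all genes. ATF3 fell by 1.77 on the log2 scale (SE 0.34), to a level 3.42-fold lower. GDF15 changed by -1.49 ± 0.24, DDIT4 by -1.38 ± 0.27, STC2 by -0.94 ± 0.22 and SESN2 by -0.80 ± 0.22 (adjusted p = 0.00238 for ATF3, 0.000616 for GDF15, 0.00247 for DDIT4, 0.0085 for STC2 and 0.0249 for SESN2, edgeR). The transporters SLC7A11, SLC3A2 and SLC38A2 changed by -1.25 ± 0.35, -0.59 ± 0.18 and -0.58 ± 0.18, and the synthetases WARS1 and NARS1 by -0.97 ± 0.24 and -0.66 ± 0.20 (adjusted p from 0.0125 for WARS1 to 0.0415 for SLC38A2, edgeR). CEBPB was the gene called higher (0.63 ± 0.20, adjusted p = 0.0479, edgeR). Not called were ATF4 (0.26 ± 0.16), ATF5 (0.67 ± 0.25), CEBPG (0.28 ± 0.24) and DDIT3 (0.24 ± 0.34), and edgeR called 0 of the 11 enzymes, as did DESeq2 and limma-voom, ASNS being the 1 with an unadjusted p under 0.05.

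Without the pair of libraries 9 were called (11.0% of all genes), CEBPB and SLC3A2 being lost and ATF3 and the 4 stress effectors kept. ATF3 stood at -1.61 ± 0.35, GDF15 at -1.21 ± 0.14, DDIT4 at -1.44 ± 0.24 and STC2 at -0.76 ± 0.17 (adjusted p = 0.00482, 1.19e-05, 0.000602 and 0.00657, edgeR). These 4 genes were called with each of the 12 libraries left out in turn. Within the 3 runs of library numbers GDF15 differed by -2.24, -1.35 and -1.08 log2 units and DDIT4 by -1.34, -1.51 and -1.26. By contrast ASNS differed by -1.97, -0.44 and -0.55 and PHGDH went from -0.53 ± 0.34 to -0.19 ± 0.16 without the pair. Of the 37 genes, 21 were lower in Plasmax-TE in all 3 runs and 5 were higher in all 3, against 24.2% and 24.5% of all genes. With the run as a block, 16 were called, against 17.8% of all genes. It kept the 11 and added ATF5 higher (0.63 ± 0.18) and NUPR1 (-0.73 ± 0.21), ASNS (-0.92 ± 0.32), GARS1 (-0.75 ± 0.24) and MARS1 (-0.51 ± 0.17) lower (adjusted p from 0.0198 for ATF5 to 0.0487 for ASNS, edgeR). The count of called genes was 5 without Plasmax replicate 1, Plasmax-TE replicate 1 or Plasmax-TE replicate 2, 6 without Plasmax replicate 2 or 3, and 7 without EMEM replicate 1. WARS1 was lost without Plasmax-TE replicate 1, and SESN2 without Plasmax replicate 1 or 3 or Plasmax-TE replicate 2. SLC7A11, SLC3A2, SLC38A2 and NARS1 were each lost without Plasmax replicate 1, Plasmax replicate 2, Plasmax-TE replicate 1 or Plasmax-TE replicate 2, with adjusted p up to 0.169 over the libraries left out. SLC3A2 was kept in 6 of the 12 cases, SLC38A2 and NARS1 in 4 and CEBPB in 2.

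When iron was added to Plasmax-TE, most of the genes were higher on average but 0 passed the test. In Plasmax-TE+Fe against Plasmax-TE, edgeR called 0 of the 37, against 0.258% of all genes, while 6 had an unadjusted p under 0.05, all 6 higher. DESeq2 called 2 and limma-voom 0. The shares of all genes at that unadjusted threshold, and with DESeq2 or limma-voom, are not given. These counts therefore cannot be set against all genes. The fold change was above 0 in 31 of the 37, with a median of 0.30 against 0.00 over all genes. The 6 were DDIT4 (1.10 ± 0.27), GDF15 (0.89 ± 0.24), STC2 (0.69 ± 0.22), SLC38A2 (0.57 ± 0.18), SLC7A11 (0.90 ± 0.35) and VLDLR (0.98 ± 0.44), with adjusted p from 0.0909 for DDIT4 to 0.508 for VLDLR (edgeR). Of the transcription factors, ATF3 was at 0.64 ± 0.37, ATF5 at -0.47 ± 0.24, ATF4 at 0.03 ± 0.16, CEBPB at -0.01 ± 0.20, CEBPG at 0.18 ± 0.24 and DDIT3 at -0.21 ± 0.33.

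Without the pair, 3 genes were called higher, DDIT4 at 1.41 ± 0.26, GDF15 at 0.86 ± 0.15 and SLC38A2 at 0.58 ± 0.13, against 0.930% of all genes (adjusted p = 0.0108, 0.00896 and 0.0354, edgeR). The same 3 genes were called with the run of library numbers as a block, against 1.45% of all genes. The count was 6 when Plasmax-TE+Fe replicate 2 alone was left out and 0 when any other library was. Within the 3 runs, the first of which holds both libraries of the pair, GDF15 differed by 1.03, 1.00 and 0.70, SLC38A2 by 0.55, 0.73 and 0.43, SLC7A11 by 0.80, 0.99 and 0.87 and STC2 by 0.63, 0.65 and 0.77 log2 units. Of the 37 genes, 21 were higher with iron in all 3 runs and 3 were lower in all 3, against 20% and 19.9% of all genes.

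Between Plasmax-TE+Fe and complete Plasmax, edgeR again called 0 of the 37, against 1.20% of all genes, and so did DESeq2 and limma-voom. An unadjusted p under 0.05 was reached by 5, lower for ATF3 (-1.13 ± 0.32), GDF15 (-0.59 ± 0.24) and WARS1 (-0.54 ± 0.23) and higher for CEBPB (0.62 ± 0.20) and PCK2 (0.46 ± 0.20). The share of all genes at that unadjusted threshold is not given, so the 5 cannot be set against it. ATF4 stood at 0.29 ± 0.16, ATF5 at 0.20 ± 0.25, CEBPG at 0.46 ± 0.24 and DDIT3 at 0.03 ± 0.34, and the median over the 37 was -0.08 against 0.01 over all genes. Without the pair the count was also 0 (1.63% of all genes). With the block for the run of numbers 2 were called (3.56% of all genes), ATF3 lower at -1.14 ± 0.30 and CEBPB higher at 0.59 ± 0.15 (adjusted p = 0.0372 and 0.0355, edgeR).

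In Plasmax-TE against EMEM, 7 of the 37 were called, all 7 lower, against 4.81% of all genes in either direction and 3.19% lower. They were ATF3 (-1.64 ± 0.34), GDF15 (-1.12 ± 0.24), NUPR1 (-1.06 ± 0.26), TRIB3 (-1.05 ± 0.24), DDIT4 (-0.98 ± 0.27), SESN2 (-0.96 ± 0.22) and SLC38A2 (-0.96 ± 0.18), with adjusted p from 0.00299 for SLC38A2 to 0.0406 for DDIT4 (edgeR). So 5 of the 7 measured stress effectors were lower than in EMEM, and GDF15 and SLC38A2 were called with each of the 12 libraries left out in turn. ATF4, ATF5, CEBPB, CEBPG and DDIT3 were not called, at -0.13 ± 0.16, 0.05 ± 0.24, 0.12 ± 0.20, -0.12 ± 0.24 and -0.97 ± 0.31. Without the pair 12 were called, 8 lower and 4 higher, against 6.16% of all genes, the 4 being ASNS (0.91 ± 0.24), PHGDH (0.63 ± 0.16), PSAT1 (0.64 ± 0.18) and ALDH1L2 (1.78 ± 0.52). The Plasmax-TE library left out was the lowest of its medium for all 4, so their rise follows in part from leaving it out. ALDH1L2 rests on 16 and 8 counts in the Plasmax-TE libraries kept, against 4, 3 and 3 in EMEM. Without EMEM replicate 2, 9 were called, all 9 lower (2.67% of all genes), with DDIT3 and STC2 added. With the run of library numbers as a block 10 were called (7.93% of all genes), with DDIT3 (-0.94 ± 0.21), STC2 (-0.66 ± 0.18) and ALDH18A1 (-0.55 ± 0.15) added as lower. The count was 2 without EMEM replicate 3 or Plasmax-TE replicate 2 and 3 without EMEM replicate 1. ATF3 was lost without EMEM replicate 3 or Plasmax-TE replicate 2, TRIB3, SESN2 and NUPR1 without either of these or EMEM replicate 1, and DDIT4 was kept in 4 of the 12 cases.

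In Plasmax-TE+Fe against EMEM, 4 were called, against 9.65% of all genes. VLDLR (1.63 ± 0.48) and NARS1 (0.68 ± 0.20) were higher, and DDIT3 (-1.19 ± 0.32) and ALDH18A1 (-0.74 ± 0.18) were lower (adjusted p = 0.0351, 0.0405, 0.0207 and 0.0127, edgeR). ATF4 stood at -0.09 ± 0.16, ATF3 at -1.00 ± 0.32, ATF5 at -0.42 ± 0.24, CEBPB at 0.10 ± 0.20 and CEBPG at 0.06 ± 0.24, none called. Without the pair 13 were called, 10 higher and 3 lower, against 14.1% of all genes. ASNS then stood at 1.32 ± 0.24, PHGDH at 0.84 ± 0.15, SLC7A11 at 1.21 ± 0.29 and WARS1 at 1.01 ± 0.18 (adjusted p = 0.000663, 0.000758, 0.00703 and 0.000757, edgeR). The Plasmax-TE+Fe library left out was the lowest of its medium for each of these genes, so their rise follows in part from leaving it out. With the block 11 were called (15.0% of all genes), and the count was 12 without Plasmax-TE+Fe replicate 2 alone and 8 without Plasmax-TE replicate 1. DDIT3 was lost without EMEM replicate 1 or 3 or Plasmax-TE+Fe replicate 1 or 3, and ALDH18A1 without EMEM replicate 3. The count was 2 without Plasmax-TE+Fe replicate 1, 1 without Plasmax-TE+Fe replicate 3 or EMEM replicate 1, and 0 without EMEM replicate 3. Without EMEM replicate 2, 6 were called, all 6 lower (6.27% of all genes), namely ATF3, DDIT3, TRIB3, SESN2, NUPR1 and ALDH18A1, and VLDLR and NARS1 were lost (adjusted p = 0.17 and 0.138, edgeR).

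**Figure D5:**
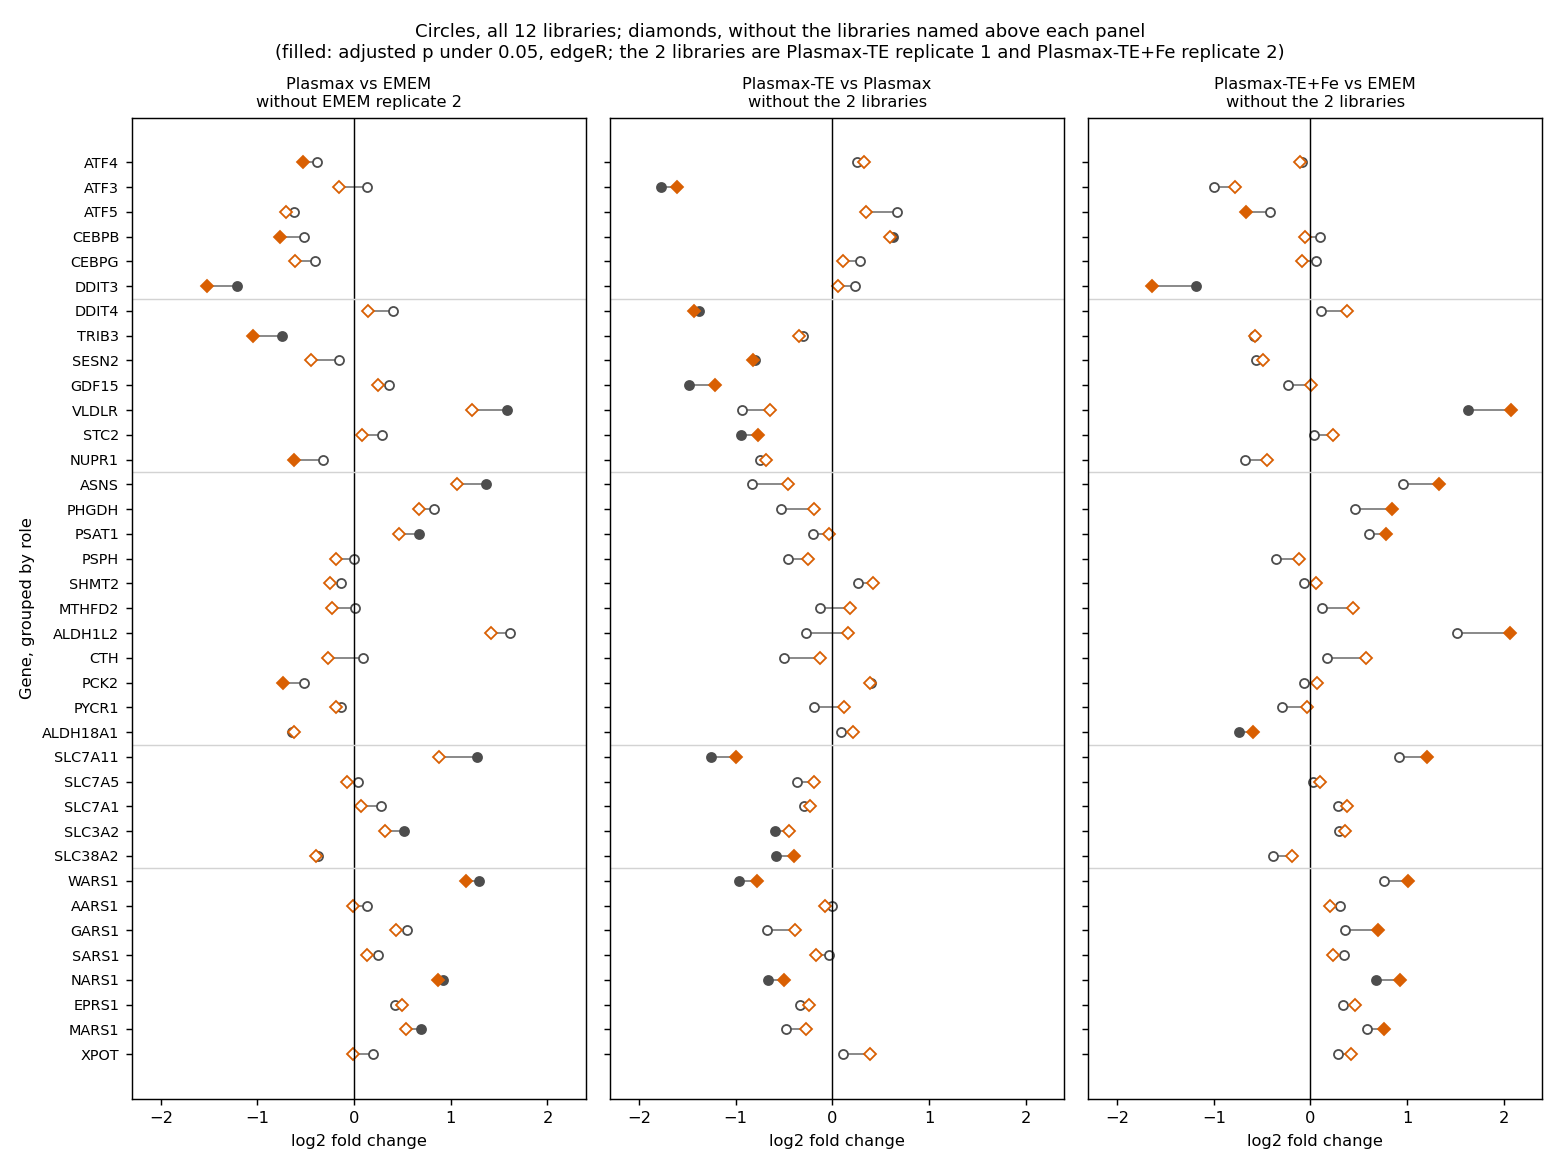
Log2 fold changes (horizontal axes) of the 37 genes (vertical axis) with all 12 libraries (circles) and without the libraries named above each panel (diamonds), with filled symbols at an adjusted p under 0.05. Without EMEM replicate 2 the points of Plasmax against EMEM move down for 35 of the 37 genes and 8 are filled in place of 11. That library was the lowest of EMEM for 35 genes, so this shift follows from leaving it out. Without the pair, the points of Plasmax-TE+Fe against EMEM are filled for 13 genes in place of 4.

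Related genes outside the list were counted in the same fits, and the comparisons share media, so their values are given side by side. Of 15 further cytosolic synthetases and complex proteins measured, 5 were higher and 1 lower in Plasmax than in EMEM, with a median of 0.34 (all genes: 9.90% higher and 11.5% lower). Without EMEM replicate 2, 1 of the 15 was called, higher, against 16.2% of all genes. Neither QARS1 (-0.44 ± 0.17) nor EEF1E1 (0.53 ± 0.20) was then called. QARS1 (glutamine) was the 1 called lower, at -0.43 ± 0.15 in Plasmax against EMEM and 0.59 ± 0.15 in Plasmax-TE against Plasmax (adjusted p = 0.0432 and 0.0136, edgeR). EEF1E1, a scaffold of the synthetase complex, was at 0.63 ± 0.18 in Plasmax against EMEM, and TARS1 (threonine) at -0.60 ± 0.18 in Plasmax-TE against Plasmax (adjusted p = 0.0167 and 0.0331, edgeR). Of 16 mitochondrial synthetases, 1 was higher and 1 lower in Plasmax than in EMEM (median 0.00), HARS2 (histidine) at 0.93 ± 0.30 and NARS2 (asparagine) at -1.04 ± 0.32. Both were called without EMEM replicate 2 as well. HARS2 was also the 1 of the 16 called in Plasmax-TE against Plasmax (-1.16 ± 0.31), against 11.2% of all genes.

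Of 16 genes for eIF2 kinases, eIF2 phosphatase subunits and the eIF2 and eIF2B factors, 1 was called in Plasmax against EMEM and 2 in Plasmax-TE against Plasmax. Of all genes, 21.4% and 11.2% were called in these comparisons. EIF2S1, the alpha subunit of eIF2, was higher in Plasmax than in EMEM (0.75 ± 0.23), a call lost without EMEM replicate 2 (0.70 ± 0.27, adjusted p = 0.0864, edgeR), and lower in Plasmax-TE than in Plasmax (-0.77 ± 0.23). PPP1R15A, the stress-induced phosphatase subunit GADD34, was lower in Plasmax-TE than in Plasmax (-0.70 ± 0.21, adjusted p = 0.0334, edgeR). PPP1R15A is also 1 of the 28 genes of the next list, so its call is counted in both. Of 28 further genes linked to ATF4, 5 were higher and 3 lower in Plasmax than in EMEM (all genes: 9.90% and 11.5%). In Plasmax-TE against Plasmax, 0 were higher and 6 lower (all genes: 5.61% and 5.63%). Without EMEM replicate 2, 2 were called higher and 3 lower in Plasmax than in EMEM, against 16.2% of all genes in either direction. MTHFD1L, a mitochondrial folate enzyme, was among both, at 1.09 ± 0.18 and -0.60 ± 0.17, and so was TXNIP, which restrains glucose uptake, at 6.01 ± 0.25 and -0.86 ± 0.18. SLC43A1, a carrier of large neutral amino acids, was lower in Plasmax than in EMEM (-0.84 ± 0.19). MTHFD1L, TXNIP and SLC43A1 were also called without EMEM replicate 2, at 1.05 ± 0.21, 6.06 ± 0.31 and -1.05 ± 0.17. Of 17 chaperones and unfolded protein response genes of the other branches, 1 was higher and 1 lower both in Plasmax against EMEM and in Plasmax-TE against Plasmax. Over all genes, 9.90% were higher and 11.5% lower in the first, and 5.61% and 5.63% in the second. DNAJB9, a chaperone of the endoplasmic reticulum, was lower in Plasmax than in EMEM (-1.11 ± 0.25) and higher in Plasmax-TE than in Plasmax (1.08 ± 0.25). SDF2L1 was at 0.58 ± 0.20 in the first and DNAJB11 at -0.59 ± 0.17 in the second.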

How the data were processed

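RNA from HepG2 cells grown in each of 4 media gave 12 QuantSeq libraries, which read the 3′ ends of transcripts. STAR 2.7.5b, cutadapt 1.16, FastQC 0.72, limma 3.40.6, featureCounts 1.6.3 and the build hg19 (GRCh37) are named per the submitters' processing notes. Annotation and strand setting are not given in the sources used here. Per the file's values, the authors deposited counts of reads per gene as whole numbers, not normalized. Of 10994 entries, 54 surplus copies of 53 repeated identifiers were dropped. Every gene had at least 4.04 CPM in 3 libraries or more, and lower genes are not analysed here. Older symbols in the table were matched by identifier.

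The analysis used edgeR 4.0.16 in R 4.3.3. The function filterByExpr (minimum count 10, minimum total count 15) removed 481 genes, TMM factors were used, and 1 quasi-likelihood model of the 4 media was fitted to 12 libraries (8 residual degrees of freedom). The media together and 6 comparisons were tested, two-sided, with Benjamini-Hochberg adjustment over 10459 genes. Each SE was taken as the size of the log2 fold change over the root of its F statistic. With 3 libraries a group, exact permutation gives no p below 0.1. The script was tested on simulated data. Library values are given for ATF4, ASNS and the members that pass the test of the 4 media, all called members and the 6 transcription factors are named in each comparison, and up to 3 called genes of each further list are named. The members and lists were chosen with earlier results of these data known. Alternatives were limma-voom (limma 3.58.1), DESeq2 1.42.0, scaling by RLE factors or by library size alone, no low-count filter, a mean of 5 CPM, a replicate block, a block for 3 runs of library numbers, each library left out, the pair left out together, and only the libraries compared.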

Additional observations from a re-analysis of the deposited data

How the results depend on the processing

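The 37 genes gave 33 calls over the 6 comparisons (of 222 gene and comparison pairs), and 0 of these reversed sign under any alternative. Of the 33, 33 were kept with RLE factors, without the low-count filter, at a mean of 5 CPM and with the library-number block, 32 with library size alone and with only the libraries compared, 30 with DESeq2 and 28 with limma-voom. In 8 cases the call was kept with each of the 12 libraries left out in turn. The count of members called moved by over 1.5 times as follows, and the cause was not tested. Without the pair (Plasmax-TE+Fe replicate 2 and Plasmax-TE replicate 1) it was 22 for the 4 media together (14 with all libraries), 20 for Plasmax against EMEM (11), 3 for Plasmax-TE+Fe against Plasmax-TE (0), 12 for Plasmax-TE against EMEM (7) and 13 for Plasmax-TE+Fe against EMEM (4). With the library-number block it was 18 for Plasmax against EMEM, 3 for Plasmax-TE+Fe against Plasmax-TE, 2 for Plasmax-TE+Fe against Plasmax and 11 for Plasmax-TE+Fe against EMEM. DESeq2 gave 2 for Plasmax-TE+Fe against Plasmax-TE, and for Plasmax-TE+Fe against EMEM library size alone gave 7 and limma-voom 2. With each library left out in turn the count ran from 9 to 21 for the 4 media, 5 to 16 for Plasmax against EMEM, 5 to 14 for Plasmax-TE against Plasmax, 0 to 6 for Plasmax-TE+Fe against Plasmax-TE, 0 to 0 for Plasmax-TE+Fe against Plasmax, 2 to 10 for Plasmax-TE against EMEM and 0 to 12 for Plasmax-TE+Fe against EMEM. The highest counts were without Plasmax-TE+Fe replicate 2, except in Plasmax-TE+Fe against Plasmax. The share of all genes called can also move between these fits and is not given beside these ranges.

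The replicate numbers of the labels did not pair the libraries over all 4 media. In EMEM, Plasmax and Plasmax-TE they follow the runs of library numbers. In Plasmax-TE+Fe they do not, as its replicates 1, 2 and 3 have the numbers 96, 88 and 92. Same-numbered pairs without Plasmax-TE+Fe are therefore also pairs of the same run. Same-numbered libraries had correlations of their deviations from the group means between -0.433 and 0.173, over 0.1 in 4 of 18 pairs, and 7 of 12 libraries correlated best with their own number. With the replicate block 30 of the 33 calls were kept, 5 were added, and the count was 1 for Plasmax-TE+Fe against Plasmax-TE. Within a run of library numbers the correlation lay between 0.0254 and 0.534, over 0.1 in 9 of 18 pairs, and 12 of 12 libraries correlated best with their own run.

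With 3 libraries a medium the SE of a log2 fold change of these genes had a median of 0.235 to 0.239 over the comparisons. Differences of ALDH1L2, with at most 16 counts in a library, and VLDLR, with at most 57, were the least precise.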
